A study of Mus musculus with 2 samples.

Results

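The genes of the cytoplasmic ribosomal proteins were described in long-read RNA sequencing of mouse left cerebral cortex. Members were the protein-coding genes named Rpl or Rps with a number and an optional a, x or l, together with Rplp0, Rplp1, Rplp2 and Rpsa, that had a read in both libraries. The rule kept 77 genes, 47 of the large subunit and 30 of the small subunit, out of 18366 annotated mouse genes with a read in either library and 14631 with a read in both. It left out Rps27a, which encodes a fusion of ubiquitin with a ribosomal protein. Of the 79 protein-coding genes in the annotation that carry such a name, Rpl10l and Rpl39l were not detected in both libraries. Rps4l carries such a name too, but the annotation types it as a transcribed processed pseudogene, and it had 15 and 11 reads.

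The study has 1 group and no contrast of conditions. It holds 2 libraries of male B6CASTF1/J mice aged 14 days, a first-generation cross of C57BL/6J with the wild-derived strain CAST/EiJ, each made from 2 µg of total RNA. The labels call the libraries biological replicates but give them 1 donor identifier and speak of several males, so pooling of animals cannot be settled. The p-values set the difference between these 2 libraries against counting error only and measure no spread between animals. Such a difference may be technical. Replicate 1 held 775048 mouse reads and replicate 2 held 924222, beside 7473 and 10830 reads of ERCC spike-in RNAs.

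A ribosome joins a small subunit, which reads the messenger RNA, to a large subunit, which forms the peptide bonds. The proteins of both subunits are needed in nearly equal numbers, and their short messenger RNAs are among the abundant transcripts of most tissues. Many of these messenger RNAs begin with a cytosine followed by a run of pyrimidines, the terminal oligopyrimidine tract (TOP), through which the mTOR pathway and the protein Larp1 control their translation. In neurons they are also found in axons and dendrites. The genes have left many processed pseudogenes, intronless copies of their messenger RNAs, across the mouse genome.

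The cortex samples held markers of neurons and glia, and the libraries were unlike in markers of neighbouring tissue. Summed reads of 5 striatal markers (Penk, Ppp1r1b, Drd1, Drd2 and Rgs9) made up 0.0906% of all mouse reads in the first library and 0.0220% in the second, with Drd2 at 0 in replicate 2. Those of 5 red blood cell genes made up 0.0293% and 0.0545%. Of these 5, 4 had a higher share in replicate 2, and Alas2 had 13 and 12 reads. Summed reads of 3 choroid plexus genes made up 0.00387% and 0.0256%. They came mostly from Ttr (28 and 228 reads), with Kl at 2 and 4 reads and Clic6 at 0 and 5. For 4 oligodendrocyte markers the shares were 0.259% and 0.168%. In bulk tissue, more cells of a type and more RNA per cell cannot be told apart.

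Ribosomal protein genes took 5386 mouse reads in replicate 1, or 0.695% (95% Wilson interval 0.677 to 0.714), and 8334 in replicate 2, or 0.902% (0.883 to 0.921). The mean share was 0.798% ± 0.146 (SD, n = 2). The intervals, which cover counting error only, did not overlap, and replicate 2 stood 1.30-fold higher. The large subunit genes took 0.495% and 0.632% of mouse reads, and the small subunit genes 0.199% and 0.270%. Both subunits were thus higher in the same library, with log2 ratios of replicate 2 over replicate 1 of 0.35 (0.29 to 0.41) and 0.44 (0.34 to 0.53).

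Levels were read as CPM, reads per 1000000 mouse reads of the library, with each long read taken to stand for 1 transcript molecule. Whether short and long molecules were recovered equally was not tested, so ranks between genes of unlike length are ranks by reads. The median of the 77 mean levels was 79.9 CPM, and it was 79.9 CPM in the large subunit and 79.9 CPM in the small subunit as well. The middle 50% of the genes lay between 47.2 and 114.7 CPM, a 2.43-fold range, and 53 of the 77 genes lay within 2-fold of the median. The top of the distribution stood apart from this band: 5 genes held 27.1% of all ribosomal protein reads. Across the 77 genes the log2 levels of the libraries correlated with Pearson's r = 0.967 and Spearman's rho = 0.938, as a description over genes that share 2 libraries.

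**Figure D1:**
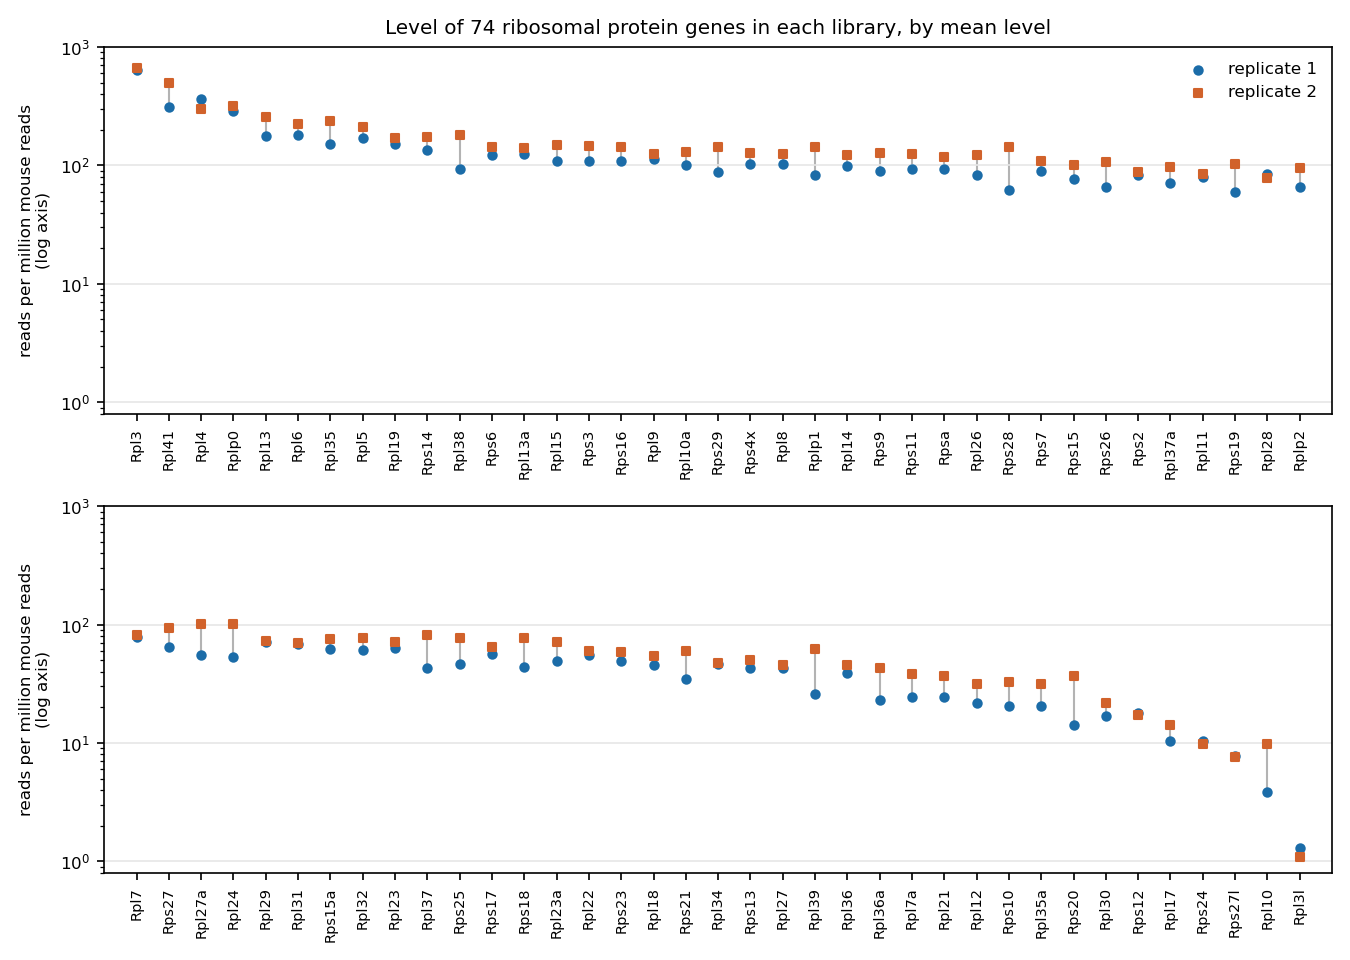
Level of 74 of the 77 genes in CPM (log axis), ordered by mean level in 2 rows; circles are replicate 1, squares are replicate 2 and the grey line joins them. Rpl3 stands at 634 and 659 CPM and Rpl3l at 1.29 and 1.08 CPM, while most genes lie near the median of 79.9 CPM.

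Large subunit core proteins led the list. Rpl3, which lies near the peptidyl transferase centre, had 491 reads in replicate 1 and 609 in replicate 2, or 634 and 659 CPM. By mean CPM it ranked 159th among annotated genes. Rpl41 stood at 311 and 496 CPM. Rpl4, whose long loop lines the exit tunnel for the nascent peptide, stood at 363 and 301 CPM. The libraries lay close together for Rpl3 and apart for Rpl41. Rpl6, Rpl13, Rpl35, Rpl5 and Rpl19 followed at mean levels of 203, 217, 194, 189 and 160 CPM. Rpl5 belongs to the particle with 5S RNA that can bind Mdm2. The 10 highest genes of each library had 9 in common, and 5 members were among the 500 highest annotated genes.

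Rpl41 encodes one of the smallest known proteins of eukaryotes, a highly basic peptide. Its gene lies on chromosome 10 (chr10:128548114-128549305, mm10, minus strand). The coding sequence of Rpl41-201, taken from the GENCODE M21 transcripts, is 78 bases long with its stop codon, and 17 of its 25 codons (68%) specify lysine or arginine. It is shown because a messenger RNA this short was among the 5 highest of the family by CPM, and the capitals mark the lysine and arginine codons.
Rpl41-201: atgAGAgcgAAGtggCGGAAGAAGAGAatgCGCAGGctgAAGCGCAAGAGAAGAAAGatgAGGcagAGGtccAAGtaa

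The stalk of the large subunit, which recruits elongation factors, is built from Rplp0 and dimers of Rplp1 and Rplp2. Rplp0 stood at 288 and 315 CPM, Rplp1 at 82.6 and 142 CPM and Rplp2 at 65.8 and 95.2 CPM. Rplp0 reads therefore outnumbered those of each of its partners in both libraries.

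Small subunit genes reached lower maxima. Rps14, which lies at the platform of the small subunit, was the highest of them at 134 and 175 CPM. Rps6, the substrate of the S6 kinases, stood at 123 and 143 CPM. Rpsa, also known as a laminin receptor, stood at 92.9 and 117 CPM, and Rps4x, encoded on the X chromosome, at 102 and 127 CPM. Rps27 stood at 64.5 and 93.1 CPM. All 5 had a higher level in replicate 2, and none of the 5 passed the test between libraries described further on.

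The lowest levels fell into paralogs and into genes of the core set. Rpl3l, the paralog of Rpl3 known from skeletal and heart muscle, had 1 read in each library. Rps27l, a paralog of Rps27 induced by p53, had 6 and 7 reads. Among core genes, Rpl10 had 3 and 9 reads, Rps24 had 8 and 9, Rpl17 had 8 and 13, and Rps12 had 14 and 16. Rpl30 had 13 and 20 reads and Rps20 had 11 and 34. At such counts the level of a single gene is imprecise: the interval of the log2 ratio of Rps24 ran from -1.43 to 1.24. Rpl39, Rpl22 and Rpl36a, which have paralogs of their own, stood at mean levels of 43.7, 57.5 and 33.3 CPM.

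Rps24 is known for alternative microexons near its 3′ end. Its 8 and 9 reads were spread over 10 models, of which the annotated Rps24-210 had 2 and 0 and Rps24-209 had 1 and 0. The most frequent chain of introns, an unannotated one with a new splice site, had 1 and 4 reads. No leading isoform of Rps24 could be named at this depth.

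Each gene was compared between the libraries with Fisher's exact test (two-sided) on its reads against all other mouse reads, with Benjamini-Hochberg adjustment over the 11203 genes with at least 10 reads. The test sets 2 libraries of 1 group against counting error and compares no conditions. Of 76 ribosomal protein genes tested, 10 passed at an adjusted p under 0.05 and all 10 were higher in replicate 2. That is 13.2% of the members, while 2.11% of all genes tested passed in either direction and 1.1% passed as higher in replicate 2. The members are mostly short, with 54 of 77 at a model length under 1000 bases. Among other genes under 600 bases, 24 of 277 passed as higher and 1 as lower. The counts were 15 and 0 of 245 genes from 600 to 800 bases, and 7 and 0 of 309 from 800 to 1000 bases. At an unadjusted p under 0.05 the count was 27 of the 76 members, against 1254 of all 11203 genes tested. The log2 ratio was above 0 in 70 members and below 0 in 6, and its median was 0.38 in members and -0.01 in all genes tested.

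Among the genes that passed, Rps28 had 48 and 131 reads. Its log2 ratio was 1.19 (0.71 to 1.66), with an adjusted p of 7.96e-05 in Fisher's exact test. Rps28 is a small protein at the messenger RNA exit site. Rpl39, a short protein of the exit tunnel, had 20 and 57 reads and stood at 1.23 (0.51 to 1.96) on the log2 scale, and Rpl38, known for its role in translating Hox messenger RNAs, had 72 and 166 reads and 0.95 (0.55 to 1.34). Rpl24 had 41 and 93 reads (log2 ratio 0.92), Rpl27a 43 and 94 (0.87) and the stalk gene Rplp1 64 and 131 (0.77). Among the abundant genes, Rpl41 had 241 and 458 reads (log2 ratio 0.67), Rpl35 117 and 219 (0.65) and Rpl13 138 and 236 (0.52). These genes spanned mean levels from 43.7 CPM in Rpl39 to 403 CPM in Rpl41.

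Outside these 10, Rps20 had the highest log2 ratio of the tested members, 1.33 (0.37 to 2.29), on 11 and 34 reads, and did not pass the test. Among the low ratios were those of Rpl4, with 281 and 278 reads and -0.27 (-0.51 to -0.03), and of Rpl28, with 65 and 72 reads and -0.11 (-0.59 to 0.37). Neither passed after adjustment.

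The libraries also differed in how many short models they held. Of all mouse reads, 8.51% in replicate 1 and 11.4% in replicate 2 belonged to models under 1000 bases, as did 58.5% and 63.7% of the ribosomal protein reads. A Known model carries the length of its annotated transcript and not that of the read. Among other genes, the median log2 ratio was 0.35 for the 277 with a model length under 600 bases, 0.27 from 600 to 800 bases, 0.20 from 800 to 1000 bases, 0.08 from 1000 to 1500 bases, -0.03 from 1500 to 2500 bases, -0.05 from 2500 to 4000 bases and -0.06 above 4000 bases. The ribosomal protein genes in the first 4 of these ranges had medians of 0.52 (25 genes), 0.34 (16), 0.31 (13) and 0.32 (16). The few longer ones did not have lower values as a group: the median was 0.36 from 1500 to 2500 bases (4 genes, of which Rpl4 lay below 0), and the single genes in the last 2 ranges, Rps20 and Rps15a, stood at 1.33 and 0.29. ERCC RNAs under 600 bases, which were added to the samples and are made by no cell, had 1464 and 2857 reads, a log2 ratio of 0.71 (0.62 to 0.80), and those of 800 bases or more had 0.15 (0.10 to 0.20). Short sequences of all 3 kinds were thus higher in replicate 2. Of the 6 ribosomal protein genes above 1500 bases, 5 had ratios above 0, but these are model lengths and the reads may be shorter. The part of length in the ratios of the ribosomal protein genes was not tested. With ERCC RNAs under 800 bases as the scale, 0 of 76 members were higher, 16 were lower in replicate 2, and the median log2 ratio was -0.33. On that scale 16 of all 11203 genes tested were higher and 4431 were lower, with a median of -0.73. With all ERCC reads as the scale, 4 members were higher, 1 was lower, and their median was 0.10. Over all genes tested, 43 were then higher and 944 lower, with a median of -0.29.

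**Figure D2:**
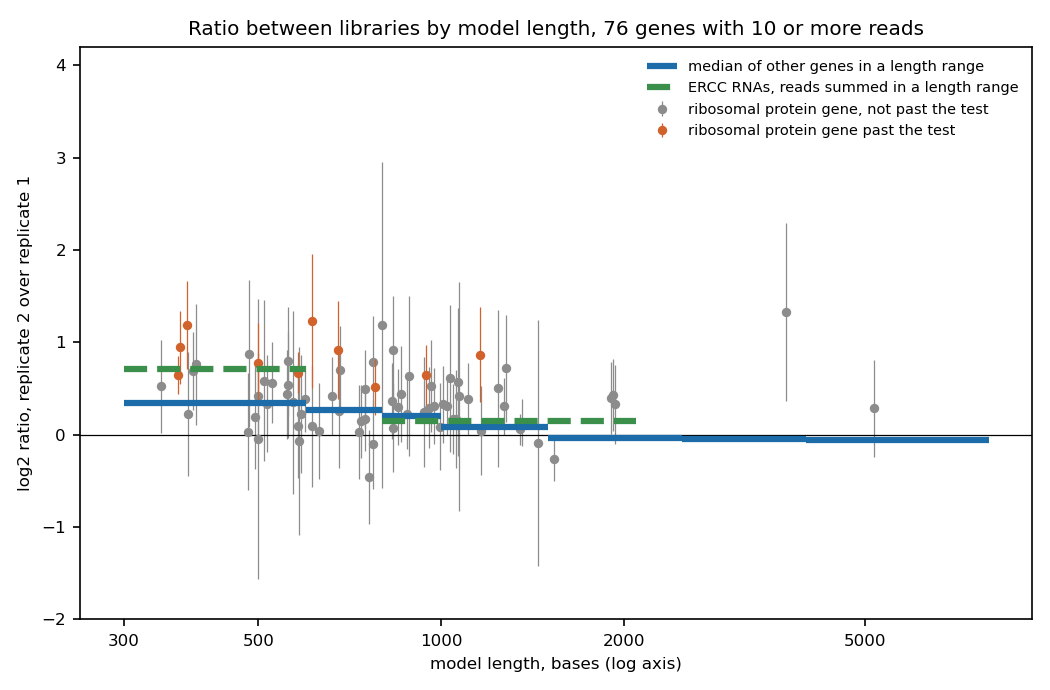
Log2 ratio of replicate 2 over replicate 1 (0.5 reads added) against model length in bases (log axis) for the 76 tested genes, with 95% counting intervals; orange points passed Fisher's exact test, solid bars are medians of other genes in a length range, dashed bars are ERCC RNAs summed under 600 bases and from 800 bases, and the outer ranges are open-ended. Most points lie above 0, and the bars of other genes and of ERCC RNAs are highest at the short end (0.35 and 0.71).

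Related gene lists were set beside the members. Among 8 ribosomal protein genes outside the naming rule, 1 passed as higher, Rps27a with 37 and 109 reads, 0 passed as lower, and the median log2 ratio was 0.25. Of 24 ribosome assembly genes 0 passed and the median was 0.08: Ncl, the nucleolar protein nucleolin, had 139 and 123 reads, and Nop56, a core protein of box C/D particles, had 97 and 75. Of 13 other genes with TOP messenger RNAs, such as the elongation factor genes Eef1a1 (329 and 355 reads) and Eef2 (261 and 315 reads), 0 passed and the median was 0.03. Of 13 tested regulators of TOP translation 0 passed, with a median of 0.14, and Larp1 had 29 and 49 reads. Of 6 tested host genes of small nucleolar RNAs 0 passed, with a median of 0.72 on few reads, such as 5 and 16 for Snhg6. The Fisher test called 0 of the 56 genes in these last 4 lists, which is near the 2.11% of all 11203 genes tested. Whether the lists differ from the ribosomal protein genes was not tested.

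TOP tracts were looked for in the RefSeq promoter entries (GRCm38.p6), which hold 250 bases before and 50 bases after each annotated start. A tract was a C followed by at least 4 pyrimidines (C or T) on the gene's strand. An entry was found for 58 of the 77 genes. The annotated start was such a C in 13 of the 58 (22.4%), and one lay within 5 bases of the start in 28 (48.3%). Counted over the 70 entries of these genes the shares were 18.6% and 42.9%, against 2.51% and 18.3% of all 32851 entries. A match is a description of the letters and not a mapped transcription start. Windows of 30 bases, 15 on each side of the start, are shown only for genes in which a tract was found, with the tract in capitals. The genes shown are 4 that passed the Fisher test and 2 that did not. For Rpl13, Rpl24, Rpl41, Rplp1 and Rps28, which also passed, no tract or no entry was found.
Rpl38, chr11:114668565-114668594, plus strand: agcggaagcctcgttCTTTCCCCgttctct
Rpl35, chr2:39005117-39005146, minus strand: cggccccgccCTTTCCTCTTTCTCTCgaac
Rpl27a, chr7:109519180-109519209, plus strand: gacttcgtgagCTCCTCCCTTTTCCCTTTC
Rpl39, chrX:37085208-37085237, minus strand: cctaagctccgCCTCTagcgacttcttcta
Rps6, chr4:86857353-86857382, minus strand: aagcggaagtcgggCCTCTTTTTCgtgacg
Rps24, chr14:24490663-24490692, plus strand: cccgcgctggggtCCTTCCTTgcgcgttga
The search went back at most 5 bases from the annotated start. The capitals begin at that base in Rpl38 and 1 to 5 bases before it in the other 5. In Rpl35, Rpl38 and Rps24 the run of pyrimidines reaches further back than the capitals, which always begin at a C. The length found was 5 bases in Rpl39 and 20 in Rpl27a, where the tract extends past the window.

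Most ribosomal protein reads followed an annotated transcript from end to end of its introns. Known models, which match the full intron chain of an annotated transcript, took 87.7% ± 0.66 of the reads (SD, n = 2), against 72.1% ± 0.86 in other protein-coding genes. Incomplete splice matches, which hold only part of a chain, took 9.51% ± 0.66 against 10.8% ± 0.34. These reads were unevenly spread: 1 gene held 51.4% of them, and without it the members' share was 5.07% in replicate 1 and 4.92% in replicate 2. The median of the 41 members with at least 50 reads per library was 2.56%. Unannotated combinations of known splice sites took 1.02% and chains with a new splice site 1.21%, against 7.02% and 4.50%. Members had 202 unannotated chains, of which 28 were in both libraries and 2 had at least 3 reads in each, among them one of Rpl14 (5 and 5 reads).

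Transcripts annotated as retained introns or as targets of nonsense-mediated decay took 3.30% ± 0.29 of the Known reads of ribosomal protein genes, against 1.74% ± 0.12 in other protein-coding genes. Such isoforms are known as a means by which some ribosomal proteins limit their own synthesis. Rpl5 alone held 52.0% of these reads, 76 of 147 in replicate 1 and 133 of 255 in replicate 2. The higher share of the members thus rested largely on 1 gene and was not a trait of the family at large. Its isoform Rpl5-204, typed as a retained intron, had 75 reads in replicate 1 and 132 in replicate 2, or 59.5% and 69.5% of its reads outside incomplete and genomic models. The protein-coding Rpl5-201 had 47 and 55. Rpl5-204 has 3 exons and shares the last 2 of the 7 introns of Rpl5-201, and its first exon holds 603 bases that are intronic in Rpl5-201. So the leading model of Rpl5 in both libraries was one without an annotated protein. Rpl5-204 has no intron that Rpl5-201 lacks, so reads of Rpl5-201 that lost their upstream exons would match Rpl5-204 as Known. The counts cannot tell such reads from reads that hold the intronic bases.

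Another 5 genes followed Rpl5 in the share of reads in such models. Rpl10a, with 12 of 78 and 27 of 120 reads, spread them over several models. Rpl37a had 3 of 55 and 6 of 89 reads, Rps26 2 of 51 and 5 of 99, Rpl26 2 of 64 and 6 of 113, and Rpl14 2 of 76 and 4 of 114. In these last 4 genes, too, the model has no intron that the leading coding isoform lacks, so reads without upstream exons would match it. Of the 41 genes that reached 50 reads in both libraries, 15 had such a read in both and 3 (Rpl5, Rpl10a and Rpl37a) had more than 5% in both.

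Isoform use was tested by a chi-square test of homogeneity between libraries, in genes that reached 50 reads in both. Of 41 members 0 passed the adjusted threshold, against 2.48% of 3141 genes, and 4 had an unadjusted p under 0.05, among them Rpl13, Rpl7 and Rpl11. A second isoform with at least 10% of reads in both libraries was seen in 14 of 39 members (35.9%), against 28.5% of 2631 genes at that depth. In 9 of the 14 (Rpl8, Rpl15, Rpl28, Rpl38, Rpl41, Rps2, Rps9, Rps14 and Rpsa) the second isoform had the coding sequence of the first.

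Rpl38 had its reads nearly split. Rpl38-204 took 58.3% and 50.3% and Rpl38-201 took 34.7% and 42.3%, and they differ in the donor of the first intron with the same 70 codons. Rpl28-202 took 62.5% and 59.7%, and Rpl28-201, with a further intron, took 35.9% and 38.9%. Rps6-201 took 67.7% and 56.5% of Rps6 reads, and Rps6-204, a processed transcript that keeps the first intron and has no annotated coding sequence, took 28.0% and 40.5%. Rps9-204 (22.6% and 28.3%), Rpl8-202 (23.0% and 20.7%), Rps2-201 (14.3% and 20.0%) and Rpl41-206 (12.6% and 11.1%) each keep 1 intron of the leading isoform and the same coding sequence. These are the structures of the annotated models. Rps6-204 and Rpl41-206 have no intron that the leading isoform lacks, so its reads without the first exon would match them as Known. Whether Rps9-204, Rpl8-202 and Rps2-201 also lack such an intron was not checked, so the same limit may apply to them. Retention of the intron in the reads themselves is not shown by these counts. Rpl13a-203, a processed transcript with another first donor, took 16.7% and 18.3%. The second isoforms of Rpl15, Rps14 and Rpsa, each with another first intron, lay between 10.0% and 13.7%. Those of Rpl29 (17.3% and 14.3%) and Rps15 (13.2% and 12.05%) have another coding sequence. Rps28, which had under 50 reads in replicate 1, used Rps28-205 for 63.8% and 76.4% and Rps28-201 for 29.8% and 22.0%.

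**Figure D3:**
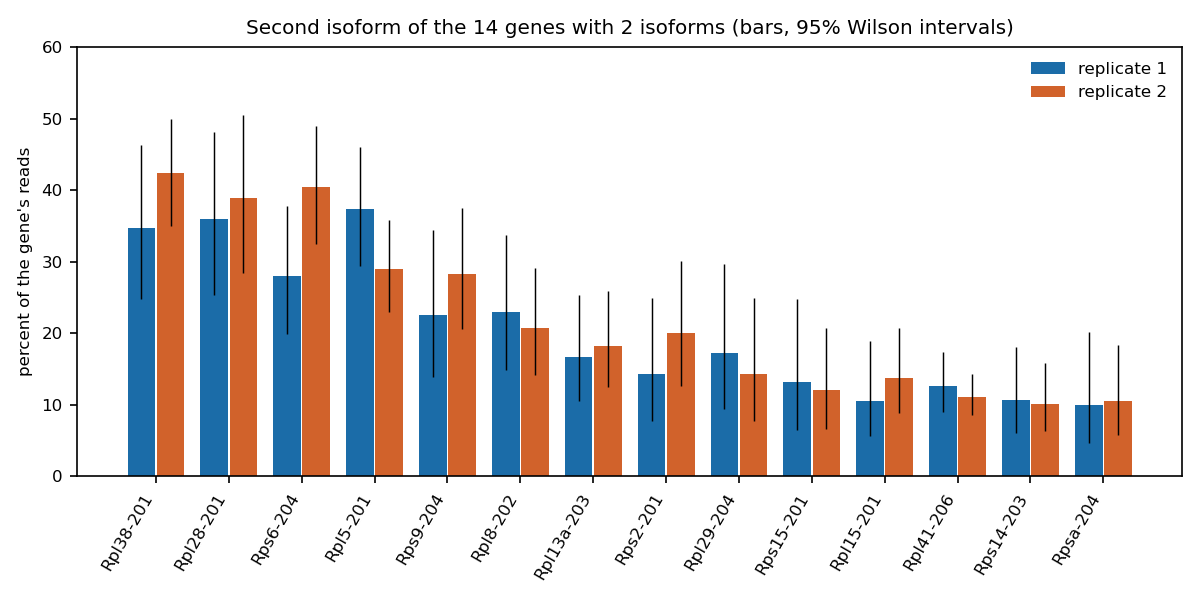
Share of the gene's reads, in percent, held by the second isoform of the 14 genes with 2 isoforms; paired bars are replicates 1 and 2 and the lines are 95% Wilson intervals. The shares run from about 10% in Rpsa-204 to 42.3% in Rpl38-201 in replicate 2, and the intervals of the replicates overlap in each gene.

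Processed pseudogenes took reads whose sequence is close to that of the members. Of 713 pseudogenes with reads, 158 aligned to a member transcript over at least 50% of their length at 80% identity or more, and they held 1203 reads in replicate 1 and 1818 in replicate 2. That was 22.3 and 21.8 reads per 100 ribosomal protein reads. Copies at 99% identity or more numbered 80 and held 86.4% of these reads. Of the copy reads 98.7% and 99.01% were in single-exon models, against 1.02% and 0.876% of the members' reads. The log2 ratio of the copies, 0.34 (0.24 to 0.45), lay near that of the members' summed reads, 0.38 (0.33 to 0.43). The 64 genes named as ribosomal protein pseudogenes (-ps) held 694 and 1036 reads.

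In 6 genes the copies had more reads than the gene in both libraries. Rpl17, a protein at the tunnel exit, had 8 and 13 reads while its copy Rpl17-ps5, at 99.6% identity, had 31 and 43. Rps2 had 64 and 81 reads against 110 and 153 for Rps2-ps13, Rps19, which is mutated in Diamond-Blackfan anaemia, had 46 and 95 against 57 and 101 for Rps19-ps6, and Rpl37 had 33 and 75 against 46 and 79 for Rpl37rt. Rpl21 (19 and 34 reads) and Rpl35a (16 and 29 reads) were the remaining 2. The most read copy was Rpl3-ps1 with 177 and 246 reads, at 99.8% identity to Rpl3. In all, 62 members had a copy with reads and 20 had at least 20% of gene and copy reads in copies in both libraries. For these genes the level is uncertain, since the files do not show which source a read came from.

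**Figure D4:**
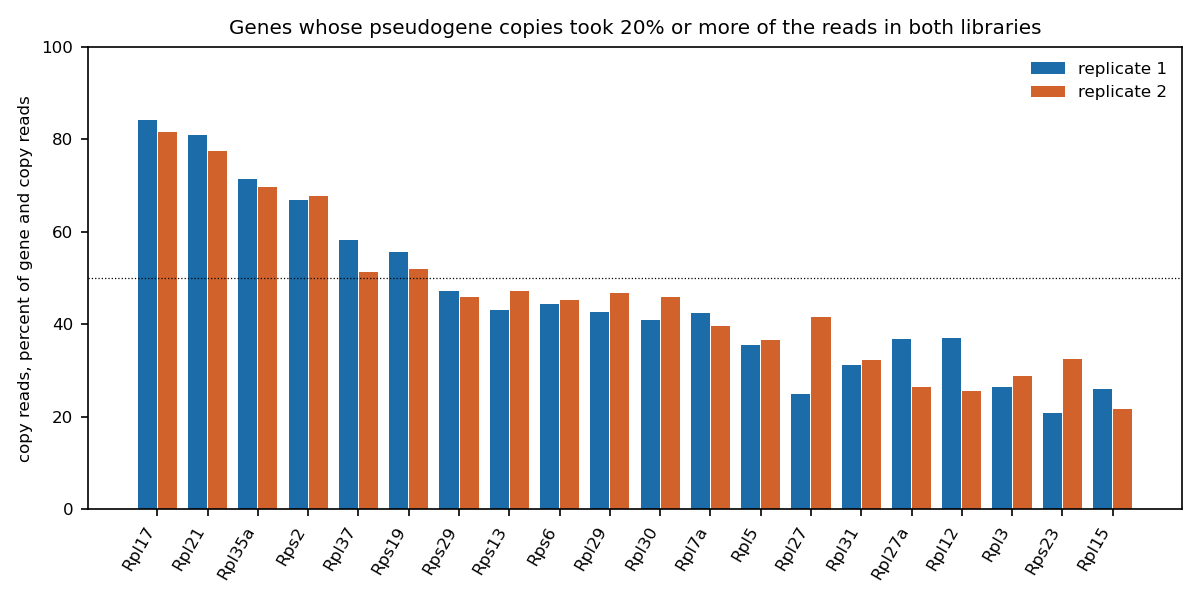
Reads of pseudogene copies as a percent of the reads of the gene and its copies together, for the 20 genes at 20% or more in both libraries; paired bars are replicates 1 and 2 and the dotted line marks 50%. The bars of 6 genes, from Rpl17 to Rps19, stand above the line in both libraries.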

How the data were processed

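Long-read RNA-seq was analysed for 2 libraries of 1 group. The authors deposited, per library, whole-number read counts of transcript models and the models' exons (mm10, GENCODE M21, per the file headers); the models name TALON as the source of unannotated features, while the aligner and any version number are not given in the sources at hand. Counts were summed per gene and divided by mouse reads. Fisher's exact test took genes with at least 10 reads, the isoform test at least 50 reads per library with isoforms under 10 reads merged, and log2 ratios had 0.5 reads added, with Benjamini-Hochberg adjustment (threshold 0.05; scipy 1.17.1). Library totals bound the precision; intervals cover counting error only. Setting 1 library against the other leaves edgeR's quasi-likelihood test no residual degrees of freedom; edgeR 4.0.16 and DESeq2 1.42.0 gave scaling factors only. Pseudogenes were aligned with blastn 2.17.0, and both tests were tested on simulated data. Named genes were those highest, lowest, past a test, with 2 isoforms, or with the largest decay or retained-intron share, plus a fixed set. A few genes and 1 sequence are not reported here. Members and lists were chosen with earlier results of these data known. Alternatives changed the models kept, scaling, filters, denominators, isoform minimum, tract position and copies.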

Additional observations from a re-analysis of the deposited data

How the results depend on the processing

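With ERCC RNAs under 800 bases as the scale, an alternative chosen after the data were seen, the median log2 ratio turned from 0.38 to -0.33, the counts higher and lower in replicate 2 became 0 and 16, and the log2 ratios of Rpl13, Rpl35 and Rpl41 became -0.19, -0.065 and -0.042. Over all genes tested the median on that scale was -0.73, with 16 higher and 4431 lower. With all ERCC reads the members' median was 0.10 and their counts were 4 and 1, against -0.29, 43 and 944 in all genes tested. The cause was not tested. Under the other 7 alternatives to the test, between 7 and 13 members were higher and 0 were lower. With Known models only, the members' share of mouse reads was 1.07%, their median level 113.6 CPM and named pseudogene reads 14.4 per 100 member reads; Known models hold 87.7% of member reads and 72.1% of those of other protein-coding genes. The median level per kilobase of model length, scaled to the same total, was 98.3. All aligning pseudogene copies, added after the data were seen, raised the share to 0.974%. Without models of a single read, the Known share was 90.02%, the incomplete splice match share 8.64% and the decay and retained-intron share 2.96%. A minor share of 20% left 6 members with 2 isoforms, and a tract within 5 bases gave 28 members. Leaving out either library moved the share of mouse reads between 0.695% and 0.902%. Rpl27a did not pass in 6 of 9 alternatives. Over 9 called members and 9 alternatives, the call held in 60 pairs, was lost in 18 and changed sign in 3. No paired analysis was possible because the study has 1 group. At 8 and 9 reads, the isoforms of Rps24 could not be ranked.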
